A study of Mus musculus with 3 samples.

Results

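The genes described here are 9 genes of intestinal iron and calcium absorption, taken by name from a table of 13891 genes: Trpv6 and S100g for calcium, and Cybrd1, Slc11a2, Fth1, Ftl1, Slc40a1, Heph and Tfrc for iron. They were chosen by their known roles, but with earlier results of these data known. All 9 had UMIs in each of the 3 libraries of the study. The libraries came from the dissociated small intestine of outbred male ICR mice that were 3 weeks old when treatment began. AOS 0 mice were given ddH2O by gavage for 2 weeks. B + A 0 mice received a single injection of busulfan, an alkylating drug used in chemotherapy, at 40 mg/kg, and then ddH2O. B + A 10 mice received the same injection and then alginate oligosaccharides (AOS) at 10 mg/kg each day for 2 weeks. Dissociated cells from 6 mice a group were pooled before droplet capture with 10x 3′ v2 chemistry, so that each group is 1 library and no difference between groups has a replicate check. Where 3 values are given without names, they stand for AOS 0 first, then B + A 0, then B + A 10.

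Calcium crosses the enterocyte, the absorptive cell of the villus, in steps: it enters through the channel Trpv6 at the luminal face, is carried through the cytosol by the binding protein S100g (calbindin-D9k), and leaves through the plasma membrane pump Atp2b1. Vitamin D acting on its receptor Vdr is known to raise this machinery, which is best developed in the duodenum. Dietary iron is reduced at the brush border by Cybrd1, imported by the divalent metal transporter Slc11a2, stored in ferritin (the heavy chain Fth1 and the light chain Ftl1) or exported at the basal face by ferroportin (Slc40a1), with hephaestin (Heph) oxidizing it for transferrin. Tfrc, the transferrin receptor, takes iron from the blood side and is known for its use by dividing cells.

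Part of this set is controlled through the mRNA itself. The iron regulatory proteins Aco1 and Ireb2 bind the iron-responsive element, a short hairpin with a bulged C and a 6-base loop, and are known to block translation from a 5′ UTR and to stabilize the message from a 3′ UTR. The UTRs of 21877 protein-coding genes of the mouse annotation (GENCODE, GRCm38, the assembly also called mm10) were searched for a 27-base hairpin with the bulged C, a loop spelled CAGTGN, 5 pairs between them and at least 4 of 5 pairs below the bulge, with G:T pairs allowed. It was found in 17 genes (0.0777%), of which 4 are described here. The sequences are shown because this search found a match in these 4 genes and in no other member. The bulged C and the loop are in capitals.
Fth1 5′ UTR, chr19:9982733-9982759, plus strand: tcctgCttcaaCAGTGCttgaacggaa
Ftl1 5′ UTR, chr7:45459780-45459806, minus strand: tcttgCttcaaCAGTGTttgaacggaa
Slc40a1 5′ UTR, chr1:45925466-45925492, minus strand: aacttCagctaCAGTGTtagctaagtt
Tfrc 3′ UTR, chr16:32631220-32631246, plus strand: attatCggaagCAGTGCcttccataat
Tfrc 3′ UTR, chr16:32631599-32631625, plus strand: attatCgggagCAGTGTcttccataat
Tfrc 3′ UTR, chr16:32631664-32631690, plus strand: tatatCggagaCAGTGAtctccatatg
Tfrc 3′ UTR, chr16:32631711-32631737, plus strand: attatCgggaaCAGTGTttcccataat
Both ferritin elements differ at 2 of 27 bases. Tfrc carried 4 matches, and the search found none in S100g, Trpv6, Slc11a2, Cybrd1 or Heph. A match is a description of these letters, and their absence says nothing about control of the other genes. Elements of this kind act on translation as well as on message stability, and the libraries counted messages only.

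The table held 12653 cells. AOS 0 had 4106 cells with 35258551 UMIs (unique molecular identifiers, each counting 1 captured molecule), B + A 0 had 3195 cells with 26044381, and B + A 10 had 5352 cells with 23003083. The median depth per cell was lowest in B + A 10, at 3505 UMIs, against 7371 in AOS 0 and 6407 in B + A 0. From 17 to 34 cell barcodes were shared by each pair of libraries. The title, description and treatment of each library gave the same group, but another label field calls the B + A 0 library AOS10 and the B + A 10 library B+A0, and the groups used here follow the titles. No mitochondrial gene was listed.

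Cells were clustered without the 9 members and without 85 further genes of iron, calcium and other metals, and clusters were named from fixed lists of marker genes. This gave 3071 crypt-like cells and 6 classes of villus-like enterocytes: early (1207 cells), mid villus (1244), proximal (901), duodenal (309), mature (1172) and ileal (841). The duodenal class was marked by Reg1, at 150 UMIs per 10000 against 23.4 in the proximal class, and by Otop3, at 1.85 against 0.195. Papss2 (27.5 against 11), Slc4a7 (7.48 against 1.04) and Onecut2 (3.87 against 1.26) were also higher there. Pdx1, a transcription factor of the duodenum and pancreas, had 0.148 against 0.0313. Fabp6, the bile acid binding protein of the ileum, had 5.0 in the duodenal class and 493 in the ileal class. Reg1, Otop3, Papss2, Slc4a7, Onecut2 and Pdx1 are on the list that named the duodenal class, and Fabp6 is on the ileal list. Their levels were thus part of the naming and are no separate check of it. The classes were placed along the intestine by genes outside the set, and no tissue label below the whole intestine was given.

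The duodenal class held 74 of the AOS 0 cells (1.80%, exact 95% binomial interval 1.42 to 2.26), 74 of the B + A 0 cells (2.32%, 1.82 to 2.90) and 161 of the B + A 10 cells (3.01%, 2.57 to 3.50). All intervals given for levels, shares and ratios cover counting error only. Levels are the summed UMIs of a gene per 10000 UMIs of the same cells, with exact Poisson intervals. They are compared between classes and libraries for 1 gene at a time.

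The members with their highest level of the 7 classes in the duodenal class were S100g, Trpv6, Slc40a1, Slc11a2, Cybrd1 and Fth1, in each library. Of the 8 members with at least 100 UMIs in these classes, which leaves out Trpv6, 5 were highest in the duodenal class by their mean over libraries, where 14.5% of all genes with that many UMIs were. Cybrd1, among the 5, passed this minimum only through its 95 duodenal UMIs. The minimum thus fixed its place in this count. The members were chosen with earlier results of these data known, so that the share of all genes is a background and no test. Heph was highest in the mature class and Ftl1 and Tfrc in the early class.

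**Figure D1:**
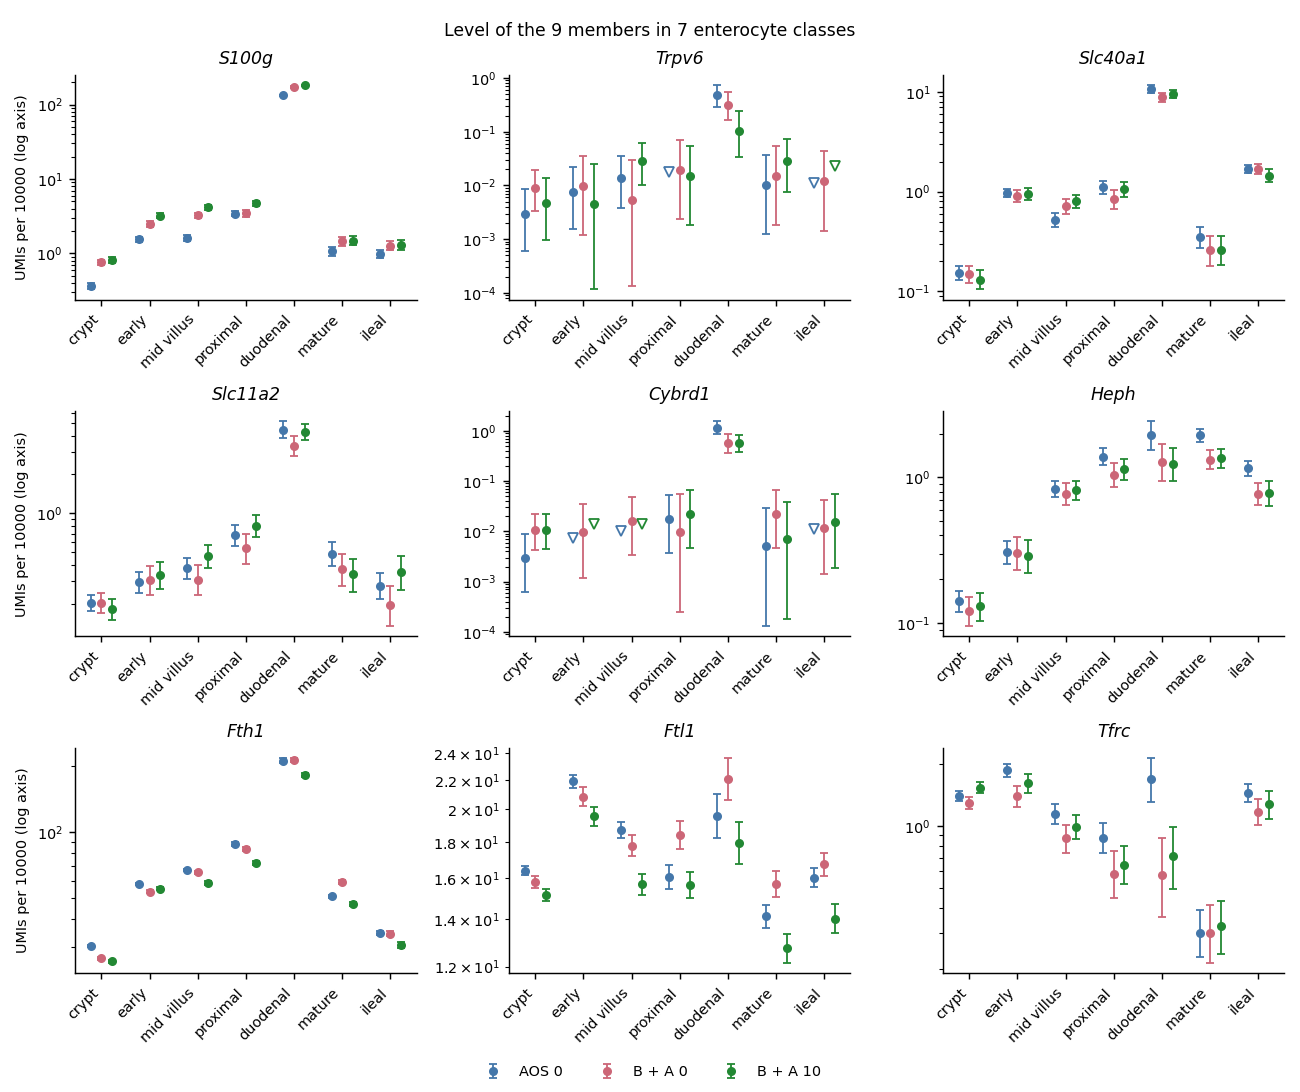
Level of each member (UMIs per 10000, log axis) in the 7 enterocyte classes. Points are the 3 libraries, bars are exact 95% Poisson intervals, and open triangles mark the level that 3 UMIs would give where a library had none. S100g, Slc40a1, Slc11a2, Cybrd1 and Fth1 peak in the duodenal class in each library, while Ftl1 is nearly level across classes and Tfrc is lowest in the mature class.

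S100g (chromosome X, 162961992 to 162964599, minus strand) is the cytosolic carrier of calcium, and its level separated the duodenal class from each other class. In the duodenal class it had 133 (129 to 137), 173 (169 to 177) and 181 (177 to 185) UMIs per 10000. In the proximal class the levels were 3.43, 3.44 and 4.73, so that the duodenal class was 38.2 to 50.2 times higher within a library. Rbp2, a retinol binding protein used as a proximal marker, had 163 in the duodenal and 206 in the proximal class, so that both classes shared it while S100g set them apart.
The other classes followed in 1 order in each library: mid villus (1.61, 3.26 and 4.16), early (1.54, 2.48 and 3.22), mature (1.08, 1.46 and 1.49), ileal (0.971, 1.27 and 1.30) and crypt (0.365, 0.759 and 0.810). The ranges over libraries overlapped between proximal and mid villus, between mid villus and early, and between mature and ileal. Against the ileal class the fold lay between 136 and 139, and against the crypt class between 223 and 364.

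The lower levels were in the range of cells that should lack S100g. Paneth-like cells, secretory cells of the crypt base, had 0.426, 1.11 and 0.992 UMIs per 10000, and T lymphocyte-like cells had 2.51, 1.08 and 2.62. The T lymphocyte level was above the mature, ileal and crypt levels in AOS 0 and B + A 10, above mid villus and early as well in AOS 0, and above crypt alone in B + A 0. The order of the classes below the proximal one, and the folds against them, thus include levels no higher than in cells that should lack the gene. After each cell was thinned to 1000 UMIs, which left out no cell, 94.5% of duodenal cells had an S100g UMI (292 of 309, interval 91.3 to 96.8). The share was 18.5% in the proximal class, 9.39% in ileal and 5.86% in crypt cells, beside 7.91% in Paneth-like and 9.21% in T lymphocyte-like cells. Unthinned, the duodenal share was 99.4% and the Paneth-like share 65.1%, at median depths of 3749 and 17621.5 UMIs per cell. Ctps2, which overlaps S100g on the opposite strand, had 1, 0 and 1 UMIs in the duodenal class.

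Trpv6 (chromosome 6, 41620624 to 41636405, minus strand), the entry channel, was at the edge of detection. The duodenal class had 19, 12 and 5 UMIs, that is 0.479, 0.314 and 0.105 UMIs per 10000. Its levels in the other 6 enterocyte classes lay between 0 and 0.0283, and the ranges of those classes overlapped one another. In all, 36 of its 99 UMIs (36.4%) were in duodenal cells. Thinned, 7 of 309 duodenal cells had a UMI (2.27%), against 0 of 430 Paneth-like cells, which allows a share of up to 0.698%.

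Cybrd1 (chromosome 2, 71117923 to 71142926, plus strand), the ferric reductase, was also scarce and nearly absent from other enterocytes. The duodenal class had 46, 22 and 27 UMIs, or 1.16, 0.576 and 0.565 UMIs per 10000, while no other enterocyte class had more than 7 UMIs in any library. Over the 3 libraries the duodenal class had 95 UMIs and the proximal class 7, a ratio per total of 43.8 (20.5 to 112). Of all its 225 UMIs, 42.2% were in duodenal cells. Paneth-like cells held 17.3% and goblet-like cells 12%. After thinning, 15 of 309 duodenal cells had a UMI (4.85%, 2.74 to 7.88), against 0.465% of Paneth-like cells.

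Slc11a2 (chromosome 15, 100387898 to 100425072, minus strand), the iron importer, had 4.44 (3.81 to 5.14), 3.32 (2.77 to 3.95) and 4.27 (3.70 to 4.90) UMIs per 10000 in the duodenal class. The proximal class had 0.682, 0.536 and 0.804, a fold of 5.31 to 6.51, and lay above the mature class in each library. Folds were larger against mature (8.99 to 12.6), ileal (12.1 to 16.9) and crypt (16.3 to 23.4) cells. Among mature, mid villus, early, ileal and crypt cells, the ranges of neighbours in the order overlapped. Thinned, 30.4% of duodenal cells and 0.930% of Paneth-like cells had a UMI. The level is that of the gene as a whole, and its isoforms were not told apart.

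Slc40a1 (chromosome 1, 45908068 to 45926523, minus strand), the exporter, had 10.7 (9.72 to 11.8), 8.84 (7.93 to 9.84) and 9.44 (8.59 to 10.3) UMIs per 10000 in the duodenal class. The next class was the ileal one, with 1.68, 1.69 and 1.45, above the proximal class with 1.10, 0.839 and 1.06, and these ranges did not overlap. The second place of the ileal class is where the exporter parted from the importer, which had its ileal level below its mature level in the first 2 libraries and above it in B + A 10. The lowest levels were in the mature class (0.256 to 0.348) and in crypt cells (0.131 to 0.152). The duodenal class was 8.93 to 10.5 times the proximal class, 5.24 to 6.53 times the ileal class and 59.8 to 72.1 times the crypt class. Thinned, 57.9% of duodenal, 14.3% of ileal and 0.930% of Paneth-like cells had a UMI.

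Fth1 (chromosome 19, 9980598 to 9985098, plus strand), the heavy ferritin chain, was present in every class and still highest in duodenal cells, with 211, 212 and 182 UMIs per 10000. The proximal class had 88.1, 84.0 and 72.4 and the mid villus class 67.0, 65.5 and 58.6. The ileal class (34.7, 34.3 and 30.6) and crypt cells (30.2, 26.5 and 25.8) were lowest. The order ran downwards without overlap except between early and mature cells. The fold between duodenal and proximal cells was 2.40 to 2.53, and between duodenal and crypt cells 7.0 to 8.01.
Ftl1 (chromosome 7, 45457944 to 45459884, minus strand), the light chain, did not share this slope. The early class had 21.9, 20.8 and 19.5 and the duodenal class 19.6, 22.1 and 18.0 UMIs per 10000, and the lowest class, mature, had 14.1, 15.7 and 12.7. Each class overlapped its neighbour in the order. The fold of duodenal over proximal cells was 1.15 to 1.22. Both ferritin genes have processed copies elsewhere in the genome, of which 5 named ones were looked for and none was in the table, so that how reads of such copies were assigned is uncertain.

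Heph (chromosome X, 96455359 to 96574485, plus strand), the ferroxidase that works beside Slc40a1, was as high in mature as in duodenal cells. The mature class had 1.96, 1.33 and 1.35 UMIs per 10000, the duodenal class 1.94, 1.28 and 1.23 and the proximal class 1.39, 1.04 and 1.14. These 3 classes overlapped in range but kept 1 order in each library. Early cells had 0.290 to 0.308 and crypt cells 0.121 to 0.141, lower than all other classes. Duodenal cells held 4.76% of its UMIs and mature cells 19.2%.

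Tfrc (chromosome 16, 32608920 to 32632794, plus strand), the receptor for transferrin, was highest in early cells in each library. These had 1.87, 1.40 and 1.62 UMIs per 10000 and crypt cells 1.40, 1.30 and 1.54, with the ileal class (1.17 to 1.46) overlapping crypt in range. Mature cells were lowest in each library, with 0.301, 0.302 and 0.324. The duodenal class ranged from 0.576 in B + A 0 to 1.69 in AOS 0, which overlapped with every other class but mature, and in AOS 0 it was second only to early cells. Crypt cells held 41.4% of its UMIs.

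Read across the set, S100g, Slc40a1, Slc11a2 and Fth1 were at least 2-fold higher in the duodenal class than in each of the other 6 classes, with at least 100 UMIs over both classes. Against the proximal class 5 of the 8 members that passed the minimum were as much higher (these 4 and Cybrd1), where 1.35% of all genes tested were. The counts were 6 of 8 against the mature class (background 3.32%), 6 of 8 against crypt cells (16.8%) and 5 of 7 against early cells (11.2%). They were 4 of 7 against mid villus cells (3.41%) and 4 of 7 against ileal cells (8.72%). Cybrd1 passed the minimum against proximal, mature and crypt cells only through its duodenal UMIs, so that the minimum fixed its place in these counts, which are 4, 5 and 5 of 7 without it. Heph was 2-fold higher against crypt and early cells and Tfrc against mature cells. None of the members that passed was 2-fold lower in any of these comparisons, where from 1.23% of all genes (proximal) to 35.2% (crypt) were. The median log2 fold of those that passed was 1.94 against the proximal class, beside -0.03 for all genes tested (without Cybrd1 it is the 1.31 of Fth1), and 2.59 against the ileal class, beside 0.12. These comparisons share the duodenal cells, and the members were chosen with earlier results of these data known. The shares of all genes are thus a background and no test of the set. The sizes depended on how the class was drawn. With each cell assigned by its own marker scores the duodenal class held 574 cells, and the log2 fold over proximal cells was 3.63 for S100g (5.39 as reported), 3.14 for Cybrd1 (5.53, and below the minimum of 100 UMIs here) and 1.90 for Slc11a2 (2.57). Without joining the libraries it was 4.73 for S100g, 3.20 for Cybrd1, again below the minimum, and 2.15 for Fth1 (1.31). Tfrc passed 2-fold over proximal cells with per-cell scores (log2 fold 1.49) and with the members among the clustering genes (1.14), and Heph did so without joining (1.01).

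Since duodenal cells were 2.44% of all cells and held 1.49% of all UMIs, the part of each gene's UMIs that came from them shows how far its signal in the intestine rested on this class. They supplied 64.1% of S100g UMIs (59.9%, 64.1% and 66.9% by library). For Slc40a1 the share was 25.4%, with 20.7%, 25.8% and 32.0% by library, and the ileal class supplied 19.2%. It was 19.9% for Slc11a2 (16.9%, 18.5% and 24.7%) and 8.0% for Fth1 (6.06%, 8.80% and 10.3%). Ftl1 and Tfrc had 1.92% (lower bound 1.85) and 1.56% (interval 1.30 to 1.86), so that Ftl1 was slightly above the class's share of all UMIs and the interval of Tfrc held it.

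**Figure D2:**
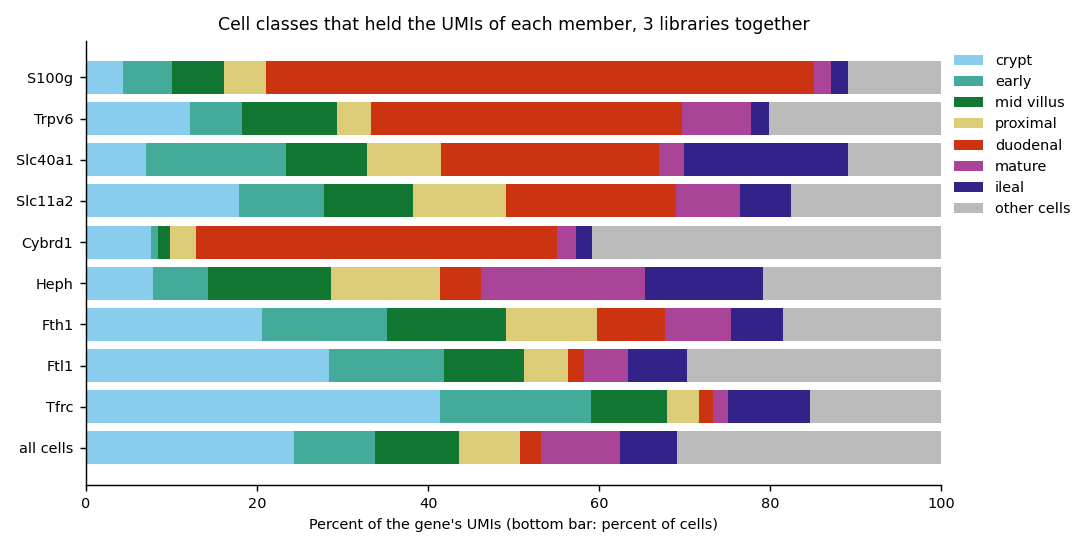
Percent of each member's UMIs found in each cell class, over the 3 libraries together, with the percent of cells in the bottom bar. Duodenal cells are 2.44% of cells, with 1.49% of all UMIs, and hold 64.1% of S100g, 42.2% of Cybrd1 and 25.4% of Slc40a1 UMIs.

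The villus-like cells of the 6 classes were also grouped by their own level of Reg1, a secreted protein that is not a member. Reg1 is on the list that named the duodenal class, so that this grouping is no separate check of the differences between classes. Cells without a Reg1 UMI (3047) had 1.04 S100g UMIs per 10000, and the groups up to 10, up to 50, up to 100 and over 100 Reg1 UMIs per 10000 (1512, 527, 268 and 320 cells) had 1.71, 13.8, 48.4 and 93.2. With the duodenal class left out the same steps were 0.888, 1.38, 4.81, 9.59 and 23.9, so that S100g was also higher with Reg1 among cells of the other villus classes.
From the first to the last group Slc40a1 went from 0.755 to 6.29 UMIs per 10000 (0.749 to 3.24 without the duodenal class). Slc11a2 went from 0.306 to 2.84 (0.304 to 1.31), and Fth1 from 46.6 to 171 (46.5 to 135). Cybrd1 went from 0.00428 to 0.431, but without the duodenal class the last group had 1 UMI. Ftl1 went from 16.7 to 20.4 (16.7 to 20.6). Heph had 0.959 and 0.983 at the ends, but without the duodenal class 0.958 (0.911 to 1.01) and 0.584 (0.421 to 0.789). Tfrc had 1.07 and 1.31, and without the duodenal class 1.07 (1.02 to 1.12) and 1.63 (1.34 to 1.95), so that outside this class Heph was lower and Tfrc higher in the group with most Reg1. Both directions held in each library, but the intervals overlapped for Heph in AOS 0 and B + A 10 and for Tfrc in B + A 10. The groups also differ in their mix of classes, which was not adjusted for. A group by Reg1 is a range of levels and not a cell type.

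**Figure D3:**
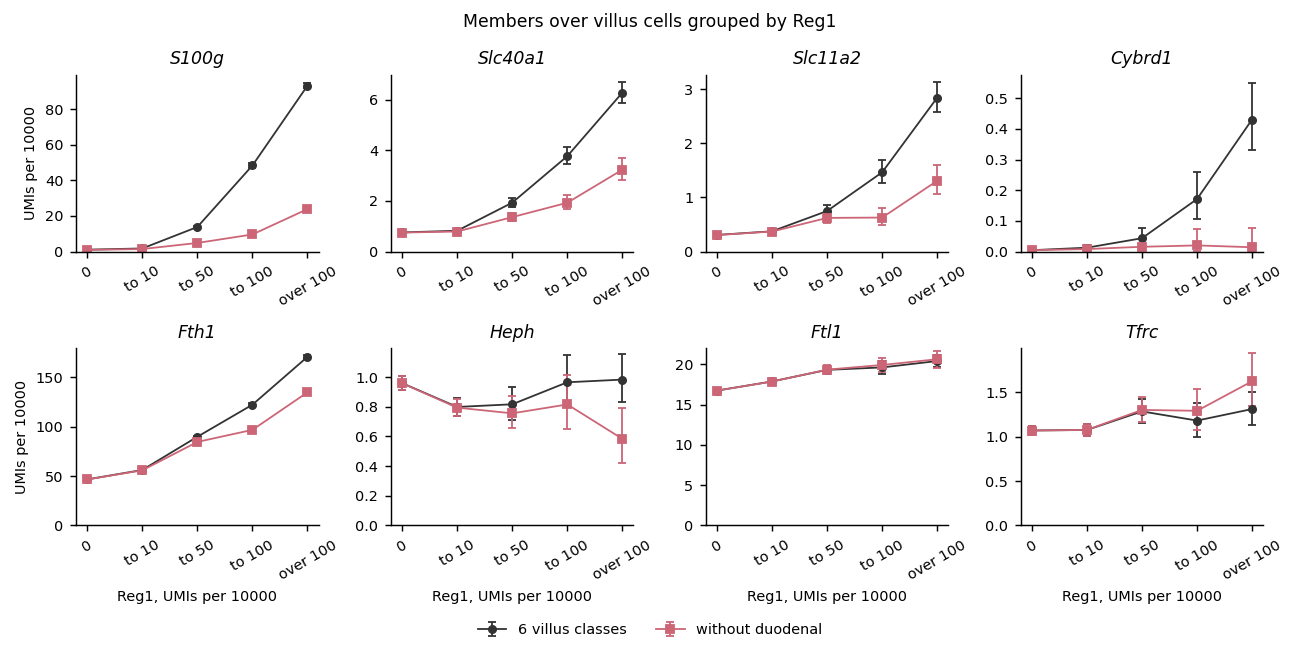
Level of 8 members (UMIs per 10000) over villus-like cells grouped by their Reg1 level, with all 6 villus classes (black) and without the duodenal class (red); bars are exact 95% Poisson intervals. S100g, Slc40a1, Slc11a2 and Fth1 are highest in the group with over 100 Reg1 UMIs per 10000 both ways, while Heph is lower and Tfrc higher in that group than in cells without Reg1 once the duodenal class is left out.

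Within the duodenal class single cells varied widely. S100g had a median of 122 UMIs per 10000 over the 309 cells, with a 10% quantile of 20.6, a 90% quantile of 421 and a highest cell of 875. The medians by library were 111, 135 and 134. Fth1 was tighter, from 23.1 to 470 with a median of 186, and Slc40a1 had a median of 8.18 and a highest cell of 54.1.
Over thinned cells of a library, S100g and Slc40a1 had Spearman correlations of 0.466 (74 cells, AOS 0), 0.537 (74, B + A 0) and 0.136 (161, B + A 10). For S100g and Fth1 they were 0.182, 0.468 and 0.456. For S100g and Reg1 they were 0.0429, 0.00155 and -0.0117. The cells of a library share its handling and sparse counts, and these values are descriptions without a test.

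**Figure D4:**
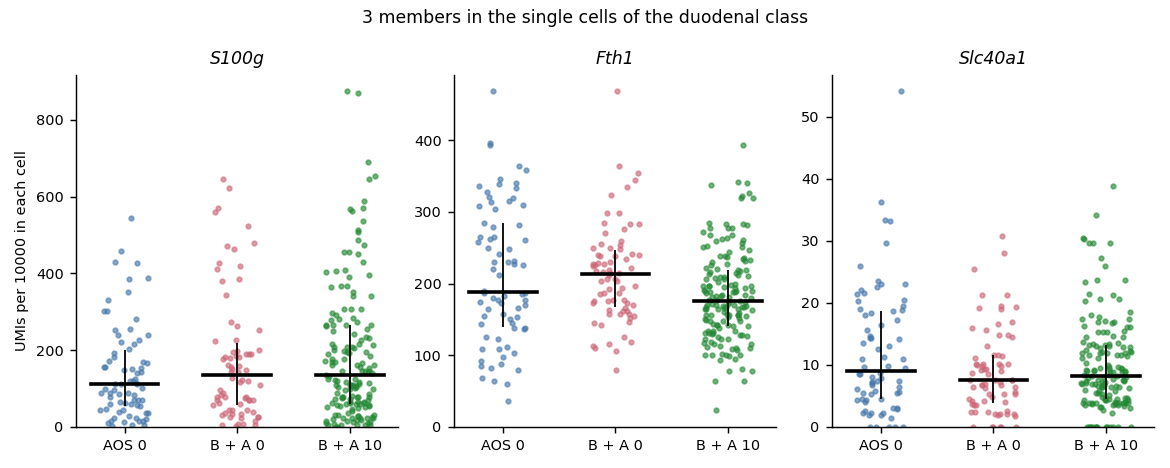
S100g, Fth1 and Slc40a1 (UMIs per 10000) in each of the 74, 74 and 161 duodenal cells of the 3 libraries; lines mark the quartiles. The clouds of the 3 libraries overlap for each gene, and the highest S100g cell, at 875, is in B + A 10.

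The comparison of B + A 0 with AOS 0 asks how the members stood after busulfan, and that of B + A 10 with B + A 0 how they stood when AOS was added. In duodenal cells S100g, Slc40a1, Slc11a2, Fth1 and Ftl1 stayed within 1.5-fold between each pair of libraries. S100g was 1.30 times as high in B + A 0 as in AOS 0, a log2 ratio of 0.38 (0.33 to 0.43), and 1.05 times as high in B + A 10 as in B + A 0 (1.01 to 1.08). Slc40a1 had ratios of 0.825 (0.713 to 0.954) and 1.07 (0.925 to 1.23), and Slc11a2 of 0.749 (0.591 to 0.946) and 1.28 (1.02 to 1.62). Fth1 had 1.00 (0.974 to 1.04) and 0.855 (0.829 to 0.881), and Ftl1 had 1.13 (1.02 to 1.24) and 0.813 (0.738 to 0.895). A ratio of 1.5-fold either way was the size set for a call. The class markers Reg1 (ratios of 0.968 and 0.913), Otop3 (1.05 and 1.07) and Papss2 (1.01 and 0.953) were as close. Slc4a7 is not given here.

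Of the 6 members with at least 100 UMIs over both libraries, 1 passed 1.5-fold between B + A 0 and AOS 0, where 5.29% of all genes tested did. This was Heph, with 49 UMIs against 77 and a ratio of 0.660 (0.452 to 0.957). It lay just past the limit, and the call was not made with clusters at resolution 0.4, with means of per-cell levels, with a total without ribosomal and defensin genes, or with thinned cells. None of 6 passed between B + A 10 and B + A 0 (background 6.39%), where Heph had a ratio of 0.963 (0.648 to 1.44). Between B + A 10 and AOS 0, 2 of 7 passed, against 9.79% of all genes: Heph at 0.636 (0.445 to 0.904) and Tfrc at 0.421 (0.270 to 0.645), both lower in B + A 10. Neither was called with thinned cells, where the UMIs left were fewer.
Tfrc in duodenal cells stood highest in AOS 0, with 67 UMIs, against 22 (B + A 0) and 34 (B + A 10). The ratio of B + A 0 to AOS 0 was 0.341 (0.200 to 0.559) on 89 UMIs, below the minimum for a call. Thinned, 15 of 74, 4 of 74 and 5 of 161 cells had a Tfrc UMI. Cybrd1, with 68 UMIs, had a ratio of 0.496 (0.284 to 0.842), and Trpv6, with 31, of 0.655 (0.290 to 1.42), also below the minimum. The comparisons share libraries in pairs, and they do not bear on each other as independent measurements.

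**Figure D5:**
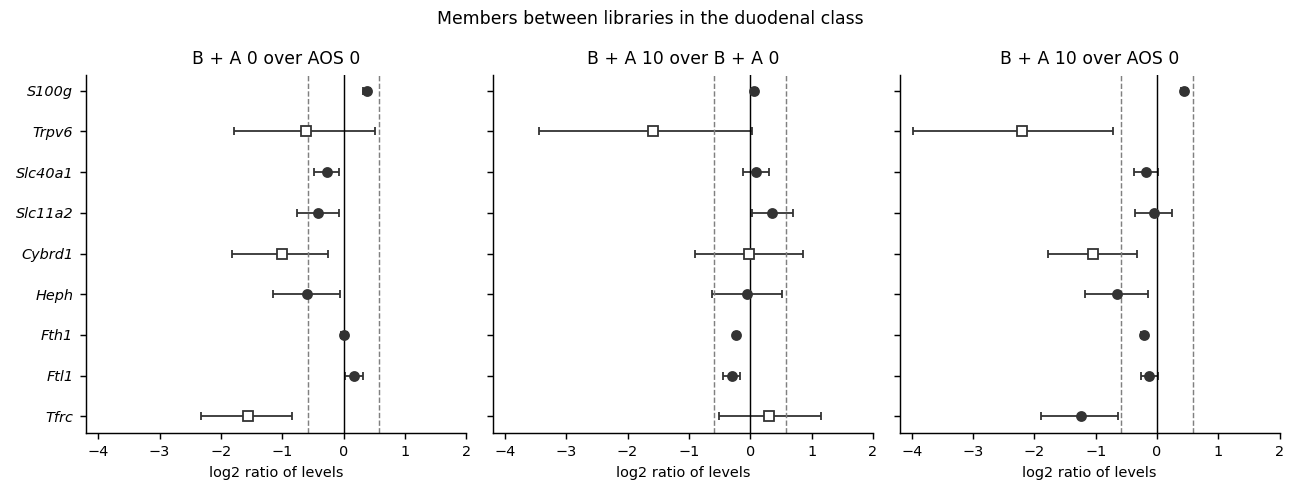
log2 ratio of each member's level between 2 libraries in the duodenal class, with exact 95% intervals from counting; circles passed the minimum of 100 UMIs, squares did not, and dashed lines mark 1.5-fold. Heph lies past the lower line in both comparisons with AOS 0, and S100g lies inside the lines in all 3.

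Over all 7 enterocyte classes together, S100g was the only member past 1.5-fold in any comparison. It had 3.28 (3.21 to 3.36), 6.0 (5.88 to 6.13) and 7.71 (7.58 to 7.85) UMIs per 10000. The ratio was 1.83 (1.77 to 1.88) for B + A 0 over AOS 0, 1.28 for B + A 10 over B + A 0, which was not called, and 2.35 (2.28 to 2.42) for B + A 10 over AOS 0. That is 1 of 7 members for B + A 0 over AOS 0 (background 3.52%), none of 7 for B + A 10 over B + A 0 (2.1%) and 1 of 7 for B + A 10 over AOS 0 (6.7%). Without the duodenal class the levels were 1.07, 1.63 and 2.11. The share of duodenal cells was also lower in AOS 0 (1.80%) than in B + A 10 (3.01%). The duodenal markers Otop3, Slc4a7 and Reg1 went the same way over the same 7 classes. For B + A 0 and B + A 10 over AOS 0, Otop3 had ratios of 1.61 and 2.07. Those of Slc4a7 were 1.17 and 1.76, and those of Reg1 were 1.23 and 1.55. Papss2, a further duodenal marker, is not given for this comparison. A difference in how much of the duodenum entered each library and a difference in the mice cannot be told apart with 1 library a group.

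Within classes other than the duodenal one, the calls were mostly S100g. In crypt cells it was 2.08 times as high in B + A 0 (1.81 to 2.39) and 2.22 times in B + A 10 (1.94 to 2.55) as in AOS 0. The thinned share of crypt cells with a UMI was below that of Paneth-like and T lymphocyte-like cells over the 3 libraries. In early cells the ratios were 1.60 and 2.09, and in mid villus cells 2.02 and 2.58. Paneth-like cells, which should lack S100g, showed the same direction (0.426, 1.11 and 0.992 UMIs per 10000), while T lymphocyte-like cells were lowest in B + A 0 (2.51, 1.08 and 2.62). Goblet-like cells had 1.19, 1.22 and 1.80. Free RNA from duodenal cells in the droplets was not tested. Reg1 was also higher in early cells, at 6.24, 10.5 and 15.6 UMIs per 10000.
In proximal, mature and ileal cells no member passed 1.5-fold in any comparison. In mid villus cells Slc11a2 was 1.51 times as high in B + A 10 as in B + A 0 (1.08 to 2.14), and Slc40a1 was 1.54 times as high in B + A 10 as in AOS 0 (1.23 to 1.93). Over members and classes that passed the minimum, 4 of 47 values were called for B + A 0 over AOS 0 (background 5.22%), 1 of 44 for B + A 10 over B + A 0 (3.44%) and 6 of 49 for B + A 10 over AOS 0 (8.42%).

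Of 85 further genes of iron, calcium, vitamin D and other metals, 73 were in the table. Against proximal cells, 6 of the 43 that passed the minimum were at least 2-fold higher in duodenal cells and 1 was lower. Of all genes tested, 1.35% were as much higher and 1.23% as much lower. The list was chosen with earlier results of these data known, so that these shares are no test of it. Atp2b1, the calcium pump, was 6.97 to 7.21 times higher within a library, at 10.8, 9.58 and 9.88 UMIs per 10000. The last step of the calcium route was thus, like S100g, highest in duodenal cells. Ncoa4, the receptor that takes ferritin to the lysosome, was 6.17 to 7.75 times higher. Slc46a1, which carries folate and heme, was 2.14 to 2.90 times higher. Slc30a10, a manganese exporter, was 4.24 to 6.19 times higher, Slc39a4, a zinc importer, 2.09 to 2.45 times, and Cyp3a11, a cytochrome P450, 3.91 to 6.21 times. Slc25a37, the mitochondrial iron importer, was lower, at 0.293 to 0.432 of the proximal level.

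The other comparisons of the list gave 20 higher and 8 lower of 53 against crypt cells, 13 and 4 of 47 against early cells, 8 and 2 of 49 against mid villus cells, 8 and 1 of 43 against mature cells and 9 and 2 of 44 against ileal cells. For all genes tested, the share that was 2-fold higher was 16.8% against crypt, 11.2% against early, 3.41% against mid villus, 3.32% against mature and 8.72% against ileal cells. The share that was 2-fold lower was 35.2% against crypt, 19.6% against early, 5.7% against mid villus, 4.03% against mature and 5.7% against ileal cells. In the ileal comparison Slc46a1 (12 to 18.2), Ncoa4 (13.4 to 14.7), Slc30a10 (9.86 to 11.8) and Cyp3a11 (11.5 to 30.3) had the largest folds, and Atp2b1 had 3.02 to 3.62. The claudin Cldn15, a cation pore between cells, was 2.01 to 2.08 times higher than in ileal cells, and Cldn12 was lower (0.348 to 0.536). The metallothionein genes Mt1 and Mt2, which bind zinc and copper, were 2.04 to 4.81 and 1.85 to 8.25 times higher than in mature cells.

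Of the regulators, Vdr, Epas1 and Ireb2 had their highest mean over libraries in duodenal cells and Aco1 did not. Vdr had 2.07 (1.64 to 2.57), 2.56 (2.08 to 3.13) and 2.74 (2.29 to 3.25) UMIs per 10000 in duodenal cells, against a mean over libraries of 1.69 in proximal and 0.959 in crypt cells. Epas1 (HIF-2α), which activates iron uptake genes, had 9, 12 and 11 UMIs, a mean level of 0.257 against 0.0795 in proximal cells. Ireb2 had 0.807, 0.707 and 0.544 in duodenal cells, against a mean of 0.456 in proximal cells, and the intervals of both classes overlapped in both busulfan libraries, with B + A 10 slightly lower in duodenal (0.544) than in proximal cells (0.566). Aco1 was highest in the proximal class, with a mean of 1.71 against 1.19 in the duodenal class.
Between libraries in duodenal cells, Cyp3a11 alone of 18 list genes was called for B + A 0 over AOS 0 (1.59), where 5.29% of all genes were. For B + A 10 over B + A 0, Mt1 (0.491) and Mt2 (0.264) were called of 20, both lower (all genes 6.39%). For B + A 10 over AOS 0, Cyp3a11 (1.84), Smad4 (1.83) and Pcbp1 (1.53) were higher and Mt1 (0.613) and Mt2 (0.188) lower, of 20 (all genes 9.79%).

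Genes whose levels ran most like each member were sought among 10180 genes, by Pearson's r of log2 levels plus 0.1 over 21 points, which are the 7 classes in 3 libraries and share cells, depth and library. For S100g these were Otop3 (0.985), Sult6b2, Gsta4, Slc11a2 (0.964) and Ncoa4. For Slc11a2 they were Ncoa4 (0.978), Otop3, Slc19a3, Car2 and S100g. Otop3 is on the list that named the duodenal class, where S100g and Slc11a2 were highest, so that its place here is no separate finding. Cybrd1 ran with Meis2 (0.942), Nr0b2, Sult6b2, Slc19a3 and Slc11a2, and Trpv6 with Cybrd1 (0.948), Nr0b2, Plxna2, Slc19a3 and Ncoa4. Cybrd1 was among the genes searched, which had at least 100 UMIs, only through its duodenal UMIs, and Trpv6 was itself below that minimum. Outside the duodenal class both had levels below the 0.1 added, so that their r mostly restates duodenal cells against the rest. For Slc40a1 the genes most alike were Atp2b1 (0.926), Ugt2b5, Tmem65, Epas1 and Capg, so that the iron exporter ran closest to the calcium exporter.
Fth1 ran with Acaa2 (0.955), Gsta4, Gsta1, Txnrd1 and Slc23a2, and Ftl1 with Akr1c19 (0.893), Scarb2, Ndufs7, Akr1c12 and Elovl6. The ferritin chains had no gene in common in these lists. Heph ran with Abhd6 (0.986), 4931406C07Rik, Jak2, Slc6a8 and Fam8a1. Tfrc ran with Acat2 (0.909), Sort1, Srebf2, Add3 and Tecr, of which Acat2 and Srebf2 are genes of sterol synthesis and its control. Of the 45 places, 30 were held by the same genes with a pseudocount of 1. With Spearman's rho far fewer were: 0 of the 5 genes for Trpv6, Slc11a2, Cybrd1 and Tfrc, and at most 3, for Slc40a1.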

How the data were processed

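Per the labels and the methods, the authors ran Cell Ranger 2.2.0 on mm10, kept cells with at least 200 genes, and scaled and log-transformed the UMIs in Seurat. The deposited values are the natural log of 1 plus UMIs per 10000 UMIs of a cell, 1 table of all cells with no cell classes. They were turned back into whole UMI counts: all 24333763 values above 0 came out whole within 0.01. The strand setting and the treatment of reads with several matches are not given in the sources used here.

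Libraries were joined by canonical correlation anchors (Seurat 5.3.0, R 4.3.3, 2000 variable genes, 20 dimensions, resolution 0.8), with 94 genes of the set and its pathways left out. A cluster took the fixed marker list with the highest score where at least 2 of its 10 leading genes were on it. An exception for Paneth-like cells (1 leading gene at a score of at least 3) was chosen after the clusters were seen. Clusters that met neither, 1021 cells, stayed unnamed. Doublets were kept: Scrublet (scanpy 1.11.5) called only 15 cells on its automatic threshold, so the highest 5% of scores per library were left out as an alternative.

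With 1 library a group there was no test and no p-value. Ratios between libraries have exact conditional binomial intervals (scipy 1.17.1, Python 3.11.15). A ratio was called at 1.5-fold between libraries or 2-fold between classes with at least 100 UMIs over both. On simulated counts for duodenal B + A 0 against AOS 0, with 172 of 1176 genes changed, 98.8% of the changed genes were called and 94.6% of intervals held the true ratio. The changes put in were at least 2-fold either way, and the counts varied by Poisson error only. Changes near the 1.5-fold limit, and spread between cells or mice, were thus not covered. The named genes are all members, list genes past the folds (at most 12 a comparison), Vdr, Epas1, Atp2b1, Ireb2 and Aco1, and the 5 genes most alike to each member. The members and lists were chosen with earlier results of these data known.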

Additional observations from a re-analysis of the deposited data

How the results depend on the processing

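Of 128 counts recomputed under 14 alternatives, 91 stayed within 1.5 times of the reported count, and of 658 values of single members 581 moved by less than their error, with none of the called values turning direction. In 5 class definitions and all other alternatives, 6 or 7 members were highest in the duodenal class. These counts were taken over all members without a minimum of UMIs, so that the scarce Trpv6 and Cybrd1 were included. No share of all genes is given for these counts. The 14.5% given for the main classes covers genes with at least 100 UMIs and is no background for them. The proximal comparison could not be made at resolution 0.4, which gave no proximal class. Assigning each cell by its own marker scores gave 574 duodenal cells, 239 of them among the 309.

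Calls between libraries moved most. The higher folds tried were 2 between libraries and 4 between classes, and the lower ones 1.5 between classes and less between libraries. In the duodenal class, B + A 0 against AOS 0 gave 2 calls without joining the libraries, with the members among the clustering genes or with per-cell marker scores, in place of 1. It gave 0 at resolution 0.4, with means of per-cell levels, with a total without ribosomal and defensin genes, with thinned cells or with the higher folds. It gave 3 with the lower folds and 4 with a minimum of 20 UMIs or with no minimum. B + A 10 against B + A 0 gave 1 with no minimum or with the lower folds in place of 0. B + A 10 against AOS 0 gave 1 without joining, with per-cell scores, with means of per-cell levels or with the higher folds, 0 when thinned and 4 with a minimum of 20 UMIs or none, in place of 2. Over members and classes, B + A 0 against AOS 0 gave 7 with a minimum of 20 UMIs, 17 with none, 20 with the lower folds and 2 with the higher folds, in place of 4. B + A 10 against B + A 0 gave 2 without joining, with the members among the clustering genes or with a minimum of 20 UMIs, 3 with per-cell scores or means of per-cell levels, 12 with no minimum, 8 with the lower folds and 0 at resolution 0.4 or with the higher folds, in place of 1. B + A 10 against AOS 0 gave 3 when thinned, 15 with no minimum and 16 with the lower folds, in place of 6. Spearman's rho shared 9 of 45 alike genes.

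The log2 ratio of S100g over the 7 classes ranged from 0.64 to 1.03 for B + A 0 over AOS 0 and from 1.00 to 1.42 for B + A 10 over AOS 0. For the log2 fold of S100g over proximal cells the range was 3.63 to 5.58. No paired analysis was possible because the labels carry no replicate numbers and each group is 1 library. Trpv6 and Cybrd1 in the duodenal class rest on 36 and 95 UMIs, which limits what their ratios can show.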
